A study of Mus musculus with 31 samples.

Results

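Bone-marrow macrophages of wild-type mice were exposed to live Escherichia coli or to purified lipopolysaccharide (LPS), and the 2 responses were set against each other gene by gene and by gene group. The comparison used 16 of the 31 arrays of the series, chosen by their titles: 8 arrays of wild-type cells given E. coli and 8 of wild-type cells given LPS. Each stimulus was given to the cells of 4 mice, and each of these mice was hybridised in both dye orientations, so that the 16 arrays gave 8 of the 16 mouse ratios of the series. The wild-type mice were C57BL/6J animals aged 6 to 8 weeks, and their marrow was grown for 8 days with 10% fetal bovine serum and 15% L929-conditioned medium, a source of the macrophage growth factor CSF-1. Live log-phase E. coli were added at 1 bacterium per macrophage for 2 h, and re-purified LPS of E. coli was added at 10 ng/mL for 2 h. Cells given medium alone for 2 h (mock) filled the other channel of every array. The labels give no LPS content for the bacteria, so whether the doses were matched is not known. Nothing in the labels says whether the mice numbered 1 to 4 under each stimulus were the same animals. Whether both stimuli shared 1 mock RNA is not stated either. MyD88-/- macrophages given the same stimuli made up the other 15 arrays of the series. Their values are set beside those of wild type below. They also enter the model's shared estimate of spread, and so the standard errors, intervals and p-values of the wild-type results.

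LPS, the glycolipid of the outer bacterial membrane, is sensed on macrophages by TLR4 with its partners CD14 and MD-2. TLR4 signals through the adaptor MyD88 to NF-kB and MAP kinases, which switch on cytokine and chemokine genes, and from endosomes through the adaptor TRIF to IRF3, which switches on interferon-beta and, through it, a second wave of antiviral genes. A live bacterium carries LPS together with lipoproteins, peptidoglycan, flagellin, DNA and RNA, which engage TLR2, NOD proteins, TLR5, TLR9 and cytosolic sensors, and it is also a particle that is taken up into a phagosome.

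Every value below is a log2 ratio, in all likelihood of stimulated over mock RNA, since the labels do not state the direction, and every difference is the E. coli ratio minus the LPS ratio. A ratio gives no level, so a probe shows how far a gene moved from mock and not how much RNA there was. In RNA of whole cultures, fewer cells of a type and less RNA per cell cannot be told apart.

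The promoters of 5 genes described below that rose strongly with both stimuli and whose mouse ratios did not overlap between them (Ccl17, Cxcl10, Mmp13, Gem and Ccl5) were looked up, and those of the chemokines Ccl17 and Cxcl10 and of the collagenase Mmp13, the 3 with an entry, are shown so that their letters can be read beside the values. Each is the RefSeq window on GRCm38.p6 from 250 bases before to 50 bases after the start, 5′ to 3′ on the gene's strand, at chr8:94810203-94810502 on the plus strand for Ccl17, chr5:92348840-92349139 on the minus strand for Cxcl10 and chr9:7272264-7272563 on the plus strand for Mmp13. Capitals mark matches on either strand to an NF-kB consensus of 10 letters, to the interferon-response core (GAAA, 2 free letters, GAAA) and to the AP-1 site TGANTCA.
Ccl17: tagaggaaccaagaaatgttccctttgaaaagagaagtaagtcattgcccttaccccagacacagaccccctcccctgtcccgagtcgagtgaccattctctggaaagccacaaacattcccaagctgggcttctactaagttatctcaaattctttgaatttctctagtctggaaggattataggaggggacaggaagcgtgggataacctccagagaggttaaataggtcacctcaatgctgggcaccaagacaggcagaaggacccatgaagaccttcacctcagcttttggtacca
Cxcl10: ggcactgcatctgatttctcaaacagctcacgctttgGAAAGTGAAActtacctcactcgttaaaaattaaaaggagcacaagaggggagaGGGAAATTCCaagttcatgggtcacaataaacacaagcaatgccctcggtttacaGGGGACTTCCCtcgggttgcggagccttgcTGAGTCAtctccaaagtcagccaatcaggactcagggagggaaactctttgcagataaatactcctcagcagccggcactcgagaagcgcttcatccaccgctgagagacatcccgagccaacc
Mmp13: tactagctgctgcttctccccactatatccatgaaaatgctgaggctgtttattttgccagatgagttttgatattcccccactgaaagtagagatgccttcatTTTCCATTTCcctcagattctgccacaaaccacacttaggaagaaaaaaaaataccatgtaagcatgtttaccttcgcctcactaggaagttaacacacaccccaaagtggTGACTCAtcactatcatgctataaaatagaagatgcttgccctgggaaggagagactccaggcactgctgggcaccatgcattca
The Cxcl10 window held 3 NF-kB matches, 2 of them overlapping in the single stretch GGGGACTTCCC, as well as 1 interferon-response match and 1 AP-1 match. The Mmp13 window held 1 interferon-response match, 1 AP-1 match and no NF-kB match, and none of these letter patterns was found in the Ccl17 window. An NF-kB match was present in 8.22% of all 27025 promoter windows, an interferon-response match in 3.52% and an AP-1 match in 7.91%. Over the 5181 tested genes that have a window, the shares were 9.81%, 3.22% and 6.02%. Among the 44 genes with the strongest rises (described below) that have a window, the shares were 18.2%, 6.82% and 18.2%. A match is a description of the letters and not a binding site.

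No gene passed the test for a difference between the stimuli. Among 7892 probes (6403 named genes) with values in 3 or more mice of both groups, limma called 0 (0%) at an adjusted p under 0.05, and the smallest adjusted p was 0.822. At an unadjusted p under 0.05 there were 315 probes (3.99%), 160 higher and 155 lower with E. coli. Chance alone would give a share of about 0.05. Fits with the wild-type mice alone, with the mouse number as a block and with arrays as the unit each called 0 as well. The same model called many probes for each stimulus against mock: 693 (8.78%) rose and 827 (10.5%) fell with E. coli, and 591 (7.49%) rose and 641 (8.12%) fell with LPS. The median standard error of a single probe's difference was 0.30, and its 95% interval reached a median of 0.65 to either side before any adjustment for the number of probes. Over the named genes the median difference was 0.002, with 3216 (50.2%) above 0. The mouse ratios of the stimuli did not overlap for 103 genes (1.61%) that were higher and 76 genes (1.19%) that were lower with E. coli. By chance alone, 4 against 4 mice are without overlap, in either direction, with a probability of 0.029. With values in all 4 mice of both groups required, 145 of 6434 probes were without overlap, which is not above that chance. A lack of overlap therefore does not by itself set a single gene apart.

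The differences varied with how strongly a gene responded. Probes were grouped by the mean of the 2 wild-type responses. That mean holds both ratios, so a probe could reach a range through a high ratio with 1 stimulus. The grouping is therefore not independent of the difference, and groups chosen by MyD88-/- responses are given further below. The 59 probes with a mean response of 3 or more had a median ratio of 4.40 with E. coli and 3.61 with LPS. Their median difference was 0.85, a fold of 1.80, and 56 of the 59 (94.9%) lay above 0. For 11 of them (18.6%) the mouse ratios did not overlap and were higher with E. coli, and for 0 were they lower. Over all 7892 tested probes, 133 were higher and 91 lower without overlap. Over the 56 of these probes that had values in all 8 mice, the median ratio was 5.32, 4.62, 4.12 and 4.35 in E. coli mice 1 to 4, against 4.28, 3.34, 3.43 and 3.58 in LPS mice 1 to 4. E. coli mouse 1 was the highest, and LPS mouse 1 lay above E. coli mouse 3, so the 2 groups of medians overlapped.

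The size of the difference grew along the scale of induction. The 98 probes with a mean response of 2 to 3 had a median difference of 0.28 (a fold of 1.21), with 70 above 0 (71.4%). The 223 probes between 1 and 2 had a median of 0.09, with 134 above 0 (60.1%). The 7326 probes between -1 and 1 had a median of -0.01, with 3587 above 0 (49.0%). Among genes that went down, the 165 probes between -2 and -1 had a median difference of -0.05, with 77 above 0, and the 21 probes below -2 had a median of 0.06, with 12 above 0. The spread of the arrays, given as the median absolute deviation of their ratios, was 0.379 to 0.611 for E. coli and 0.379 to 0.567 for LPS. With every array centred and scaled to one spread, the median difference of the strongest rises was 0.70. It was 0.66 without E. coli mouse 1, the lowest of the 8 values that leave out a mouse.

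**Figure D1:**
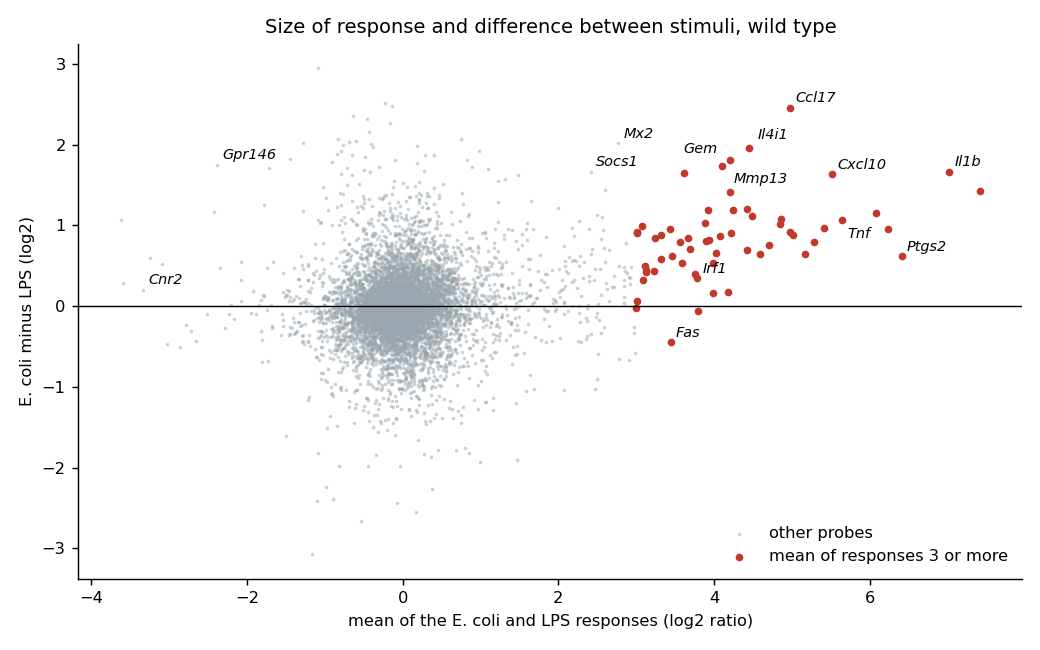
Difference between the stimuli (E. coli minus LPS, log2, vertical axis) against the mean of the 2 responses to mock (log2, horizontal axis) for every tested probe of wild-type macrophages, with the 59 probes of mean response 3 or more in red and some genes named. The median differences lie near 0 for probes that fell or barely moved and reach 0.28 between 2 and 3 and 0.85 at 3 or more.

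Chemokines, which draw leukocytes to the infected site, had the highest share of genes whose mouse ratios did not overlap. Of 23 chemokine genes on the array, 18 were tested. Of these, 13 rose with E. coli and 13 with LPS, against 8.78% and 7.49% of all probes. Higher, non-overlapping ratios with E. coli were found for 7 (38.9%), against 1.61% of all genes and 18.6% of the 59 strongest rises. Of these 7, Ccl3, Ccl4, Ccl5, Ccl17, Cxcl2 and Cxcl10 are themselves among the strongest rises. The 2 shares are therefore not separate observations. The median difference of the tested chemokines was 0.82, with 16 of 18 above 0. The mean over the 17 members with values in every wild-type mouse was 3.59, 3.23, 3.06 and 3.29 in the E. coli mice. In the LPS mice it was 2.85, 2.33, 2.46 and 2.35, so every E. coli mouse lay above every LPS mouse.

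Ccl17, a ligand of the receptor CCR4 on T cells, had ratios of 7.44, 5.99, 5.89 and 5.48 in the E. coli mice, against 5.17, 2.61, 3.42 and 3.77 in the LPS mice. The groups did not overlap, and its difference of 2.46 ± 0.52 (SE; 95% interval 1.35 to 3.57; a fold of 5.50) came with an adjusted p of 0.822 from limma. Cxcl10, an interferon-inducible ligand of CXCR3, had ratios of 6.84, 6.64, 6.12 and 5.75 with E. coli, against 5.40, 4.47, 4.38 and 4.56 with LPS. The lowest E. coli mouse was above the highest LPS mouse, and the difference was 1.63 ± 0.39 (95% interval 0.81 to 2.46; a fold of 3.10; limma adjusted p = 0.822). Ccl5, an attractant of T cells and monocytes, showed the same order, with 5.37, 5.42, 4.64 and 4.76 in the E. coli mice against 4.55, 3.92, 3.60 and 3.66 in the LPS mice, a difference of 1.12 ± 0.31. For each of these genes the exact 2-sided permutation test over the 8 mouse ratios gave p = 0.029, the smallest that 4 against 4 mice allow and the value that any gene without overlap has.

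The macrophage inflammatory proteins Ccl3 and Ccl4 and the neutrophil attractant Cxcl2 were also without overlap, with differences of 1.08 ± 0.55, 0.88 ± 0.52 and 0.79 ± 0.30. Cxcl1, a second neutrophil attractant, had ratios of 6.11, 6.76, 6.52 and 7.48 with E. coli, against 6.60, 5.32, 5.39 and 5.73 with LPS. LPS mouse 1 lay inside the E. coli range, and the difference of 0.96 ± 0.62 was -0.011 on the dye-swapped arrays alone. The monocyte attractants Ccl2 and Ccl7 differed by 0.85 ± 0.35 and 0.50 ± 0.35, with overlap. Cxcl14 stood apart from the induced chemokines: its ratios were 0.05, 0.18, -0.68 and 0.02 with E. coli, against -0.88, -1.01, -1.01 and -1.73 with LPS, a fall that passed the test with LPS and not with E. coli.

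**Figure D2:**
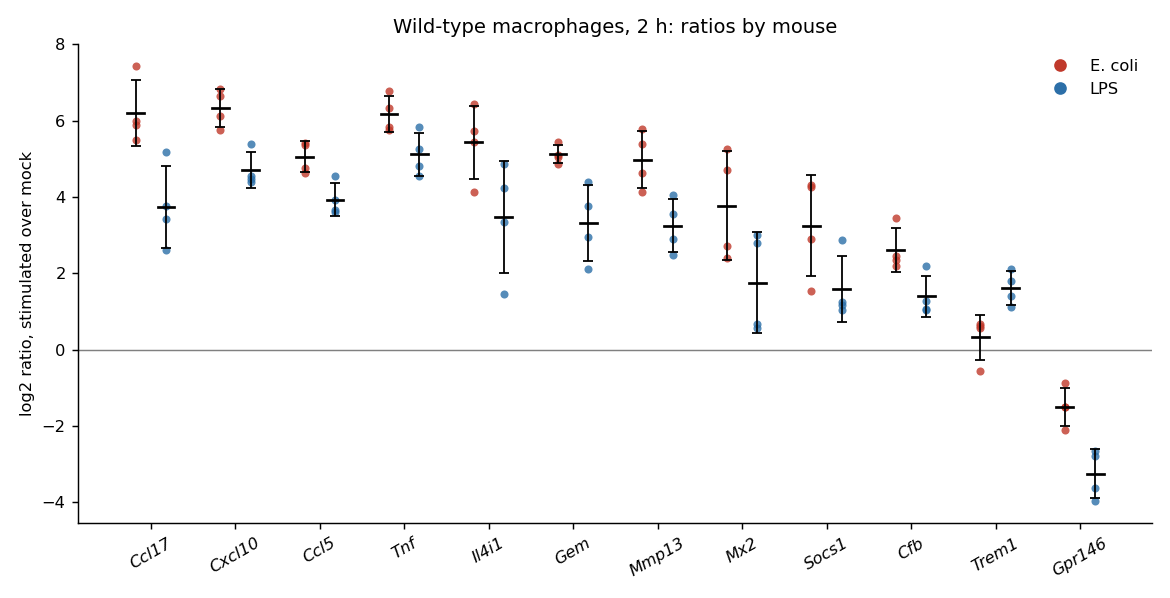
Log2 ratio of stimulated over mock RNA in each mouse (points; E. coli on the left and LPS on the right for every gene) for genes described in the text, with the group mean as a bar and its SD as whiskers (n = 4 mice each). The E. coli points of Ccl17, Cxcl10, Ccl5, Mmp13 and Gem lie above all their LPS points, those of Trem1 lie below, and those of Tnf and Mx2 overlap.

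Proinflammatory cytokines were nearly all above 0, though most overlapped between the groups. Of 19 cytokine genes on the array, 13 were tested. Of these, 11 rose with E. coli and 10 with LPS, against 8.78% and 7.49% of all probes. The difference was above 0 for 12, with a median of 0.80. The mean over the 12 members with values in every wild-type mouse was 4.59, 4.13, 3.92 and 3.97 in the E. coli mice. In the LPS mice it was 3.69, 3.08, 3.01 and 3.78, again without overlap. Tnf, the early mediator of the acute response, had ratios of 6.34, 6.78, 5.84 and 5.76 with E. coli, against 5.25, 4.56, 5.84 and 4.81 with LPS. A single LPS mouse reached the E. coli range, and the difference was 1.06 ± 0.30 (95% interval 0.41 to 1.72).

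Il1a, which acts as an alarm signal when released, differed by 1.15 ± 0.60, and Il1b, the inflammasome-processed member of the family, by 1.67 ± 0.93. Il1b had ratios of 8.26, 8.79, 6.81 and 7.58 with E. coli, against 6.92, 5.81, 6.36 and 5.69 with LPS. Its second probe, with mean ratios of -0.36 with E. coli and -0.52 with LPS, did not rise with either stimulus and differed by 0.17, so the probes of this gene disagree in the size of the response. Il6, the inducer of the acute-phase response, spanned 3.57 to 6.48 with E. coli and 1.98 to 5.05 with LPS, a difference of 1.19 ± 0.76. Il12b, a subunit of the T-cell cytokines IL-12 and IL-23, differed by 0.70 ± 1.11. Il23a, the other subunit of IL-23, rose with E. coli to a mean of 2.10, against 0.53 in the 3 LPS mice with a value, where it did not pass the test, and the difference itself was 1.57 ± 0.66 (limma adjusted p = 0.999). Il15, a growth factor for NK cells that was named after its values were seen, was the member without overlap, at 4.20, 3.92, 3.98 and 3.74 with E. coli, against 3.23, 2.71, 3.10 and 3.62 with LPS. Cytokines that restrain inflammation had positive differences too, 0.92 ± 0.77 for Il10 and 0.44 ± 0.31 for the receptor antagonist Il1rn.

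More interferon and antiviral genes passed the test with E. coli than with LPS. Of 55 such genes on the array, 50 were tested, 27 rose with E. coli and 13 with LPS, and 1 fell with each, against 8.78% of all probes that rose with E. coli and 7.49% with LPS. That count does not test the difference, which was called for none of the 50; it was above 0 for 40 of them, with a median of 0.45. The mean over the 48 members with values in every wild-type mouse was 1.35, 1.38, 0.72 and 0.73 in the E. coli mice. In the LPS mice it was 0.83, 0.76, 0.46 and 0.33. E. coli mice 3 and 4 lay below LPS mice 1 and 2, so the groups overlapped. Under both stimuli mice 1 and 2 lay above mice 3 and 4, a pattern described at the end. Each E. coli mouse lay above the LPS mouse of its number, but the labels do not say what mice of one number share.

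Ifnb1, interferon-beta itself, had ratios of 2.88, 1.21, 1.76 and 1.14 with E. coli, against 0.93, 0.11, 0.60 and 1.17 with LPS. It rose with E. coli and did not pass the test with LPS (limma adjusted p = 0.00048 and 0.12), while its difference of 1.05 ± 0.41 did not pass. Mx2, an interferon-induced GTPase that blocks viruses, had ratios of 4.71, 5.26, 2.73 and 2.39 with E. coli, against 3.01, 2.78, 0.56 and 0.66 with LPS, a difference of 2.02 ± 0.64. Ifit1, which binds foreign RNA, differed by 1.44 ± 0.85 and the antiviral enzyme Rsad2 by 0.87 ± 0.68, each with overlap.

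The transcription factor Irf1 rose with both stimuli and differed by 0.35 ± 0.46. Irf7, which amplifies interferon production, rose with neither at 2 h. The interferon genes without overlap were of small size: Trim25, a ubiquitin ligase of the RIG-I pathway, at 0.61 ± 0.26, and, named after their values were seen, the immunoproteasome subunit Psmb9 at 0.46 ± 0.20 and the GTPase Ifi47 at 0.72 ± 0.44. Trim34a, a member of the tripartite-motif family outside the list, rose with E. coli, did not pass the test with LPS and differed by 0.90 ± 0.24. Tbk1, the kinase that activates IRF3, was named after its values were seen, and had 0.63, 0.64, 0.42 and 0.50 with E. coli, against 0.33, 0.30, 0.37 and 0.27 with LPS, a small difference of 0.23 ± 0.15 without overlap.

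NF-kB components and feedback genes had a small median difference with a wide spread. Of 27 on the array, 23 were tested, and 15 rose with E. coli and 13 with LPS, against 8.78% and 7.49% of all probes. The median difference was 0.23, with 15 above 0. On the dye-swapped arrays alone that median was -0.03. Differences ran from -0.77 ± 0.46 for Map3k7, the kinase TAK1, to 1.98 ± 0.90 for Traf5, a TNF receptor adaptor, and neither gene passed the test with either stimulus. Traf5 had 3.72, -0.55 and 0.34 in the 3 E. coli mice with a value, against -0.82, -1.18, -0.80 and -0.43 in the LPS mice, so that E. coli mouse 1 stood far above the others. The inhibitory IkB family member Bcl3 differed by 0.72 ± 0.30, and the NF-kB subunit Relb by 0.46 ± 0.44, a sign that turned to -0.21 on the dye-swapped arrays alone. Tnfaip3, the A20 enzyme that ends NF-kB signalling, had 2.46, 6.51, 5.57 and 5.13 with E. coli, against 4.61, 4.36, 4.54 and 3.55 with LPS. E. coli mouse 1 was the lowest of all 8, and the difference was 0.65 ± 0.69.

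Immediate early genes and feedback genes of the MAP kinases included several of the larger differences. Of 44 on the array, 32 were tested. With E. coli 19 rose and 5 fell, against 8.78% and 10.5% of all probes. With LPS 15 rose and 5 fell, against 7.49% and 8.12%. The median difference was 0.26, with 23 above 0. The mean over the 30 members with values in every wild-type mouse was 1.32, 0.93, 1.03 and 1.30 in the E. coli mice. In the LPS mice it was 0.84, 0.59, 0.79 and 0.84, without overlap. Gem, a small GTPase that limits calcium channels, had ratios of 5.43, 5.06, 5.09 and 4.87 with E. coli, against 4.40, 3.77, 2.11 and 2.96 with LPS. Its difference was 1.80 ± 0.47 (a fold of 3.49; limma adjusted p = 0.955). The zinc-finger factor Egr2 differed by 1.21 ± 0.56 with slight overlap, and its relative Egr1 by 0.37 ± 0.26. Zfp36, the tristetraprolin that destabilises cytokine mRNA, had 1.47, 1.94, 1.34 and 1.47 with E. coli, against 0.94, 1.04, 0.97 and 0.58 with LPS, without overlap. Plk2, a stress-induced kinase named after its values were seen, was the remaining member without overlap, at 0.58 ± 0.28. Noct, a circadian gene whose protein is a phosphatase, differed by 1.04 ± 0.28 and 0.86 ± 0.39 on its 2 probes. The first was without overlap, and the second stood for the gene in this list.

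Antimicrobial and inflammatory effectors had mostly positive differences, with Nos2 as the lowest. Of 32 on the array, 24 were tested, and 16 rose with each stimulus, against 8.78% of all probes with E. coli and 7.49% with LPS. The median difference was 0.49, with 19 above 0. Il4i1, an amino-acid oxidase secreted by activated myeloid cells, had 6.43, 5.73, 4.13 and 5.43 with E. coli, against 4.85, 4.23, 1.46 and 3.33 with LPS, a difference of 1.96 ± 0.63. Cfb, the factor B of the alternative complement pathway, was without overlap, at 3.44, 2.36, 2.44 and 2.19 with E. coli, against 1.07, 2.19, 1.04 and 1.27 with LPS. The fatty-acid receptor Gpr84 differed by 1.41 ± 0.49, the acute-phase gene Saa3 by 0.75 ± 0.29 and Acod1, which makes itaconate, by 0.65 ± 0.28, all with overlap. Nos2, the inducible nitric oxide synthase, ran the other way, at 3.21, 2.76, 1.07 and 1.15 with E. coli, against 4.95, 3.80, 1.60 and 1.44 with LPS. Its mice overlapped widely, and the difference was -0.90 ± 0.72. The prostaglandin synthase Ptgs2 ranged over 6.10 to 8.01 with E. coli and 3.34 to 7.78 with LPS, a difference of 0.62 ± 1.00.

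Genes of proteolysis, coagulation and matrix had a median difference of -0.01 over 16 tested of 25, yet 3 of them (18.8%) were without overlap and higher with E. coli, against 1.61% of all genes. Mmp13, a collagenase, had ratios of 5.78, 5.39, 4.12 and 4.61 with E. coli, against 4.04, 3.56, 2.89 and 2.48 with LPS, a difference of 1.73 ± 0.46 (a fold of 3.32; limma adjusted p = 0.955). Plaur, the urokinase receptor, had 2.18, 2.63, 2.27 and 2.27 with E. coli, against 1.91, 1.65, 1.93 and 1.87 with LPS. F3, the tissue factor that starts coagulation, had values in 3 mice of each group, where groups are more easily without overlap, and differed by 1.28 ± 0.36. Furin, a proprotein protease, rose with E. coli and did not pass the test with LPS, with a difference of 0.74 ± 0.21, and Plpp3, a lipid phosphatase, rose with both and differed by 1.19 ± 0.39, each without overlap.

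Feedback on cytokine signalling showed 1 large value within a list whose median was near 0. Over 23 tested genes of SOCS proteins and cytokine receptors the median difference was -0.07, with 9 above 0. Socs1, the inhibitor of JAK kinases, had 4.32, 4.25, 2.89 and 1.53 with E. coli, against 2.88, 1.04, 1.16 and 1.25 with LPS, a difference of 1.66 ± 0.54 with overlap. Tnfrsf1b, a TNF receptor, was without overlap at 0.46 ± 0.26.

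Toll-like receptor components and phagocytic receptors had median differences near 0. Of 16 tested components of the Toll-like receptor pathway, 8 lay above 0, with a median difference of -0.002. There were 0 without overlap, where 1.61% of all genes were higher and 1.19% lower. Tlr2, the lipoprotein receptor, rose with both, at 2.54, 3.13, 2.56 and 2.25 with E. coli, against 2.64, 2.19, 2.89 and 2.24 with LPS, and the 95% interval of its difference was -0.41 to 0.68. The adaptor Myd88 rose with both and differed by 0.10 ± 0.60. The 13 tested genes of cytosolic sensing and the inflammasome had a median difference of 0.21, with 9 above 0. Of the 13, 1 (Tnfrsf1b, also in the receptor list) was higher with E. coli without overlap, against 1.61% of all genes. Among them, Casp4, the cytosolic LPS sensor caspase-11, rose with both and differed by 0.32 ± 0.34. Cd14 had values in 1 E. coli mouse and 2 LPS mice and was not tested. Peli1, a ubiquitin ligase of the pathway, rose with both and differed by -0.59 ± 0.49 on 1 probe and 0.32 on its second.

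The 26 tested phagocytic, lectin and scavenger receptors had a median difference of 0.007, with 13 above 0. Clec4e, the lectin Mincle, rose with both and differed by 0.54 ± 0.34, and the scavenger receptor Msr1 differed by -0.04 ± 0.18. Actin and phagosome genes had a median of -0.10 over 27 tested, and lysosome and proton-pump genes a median of 0.02 over 37 tested, of which 16 fell with E. coli and 14 with LPS, against 10.5% and 8.12% of all probes. The lists of the NADPH oxidase and oxidative stress, metal handling, antigen presentation, glycolysis, mitochondrial respiration and ribosomal proteins had medians between -0.03 and 0.05.

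**Figure D3:**
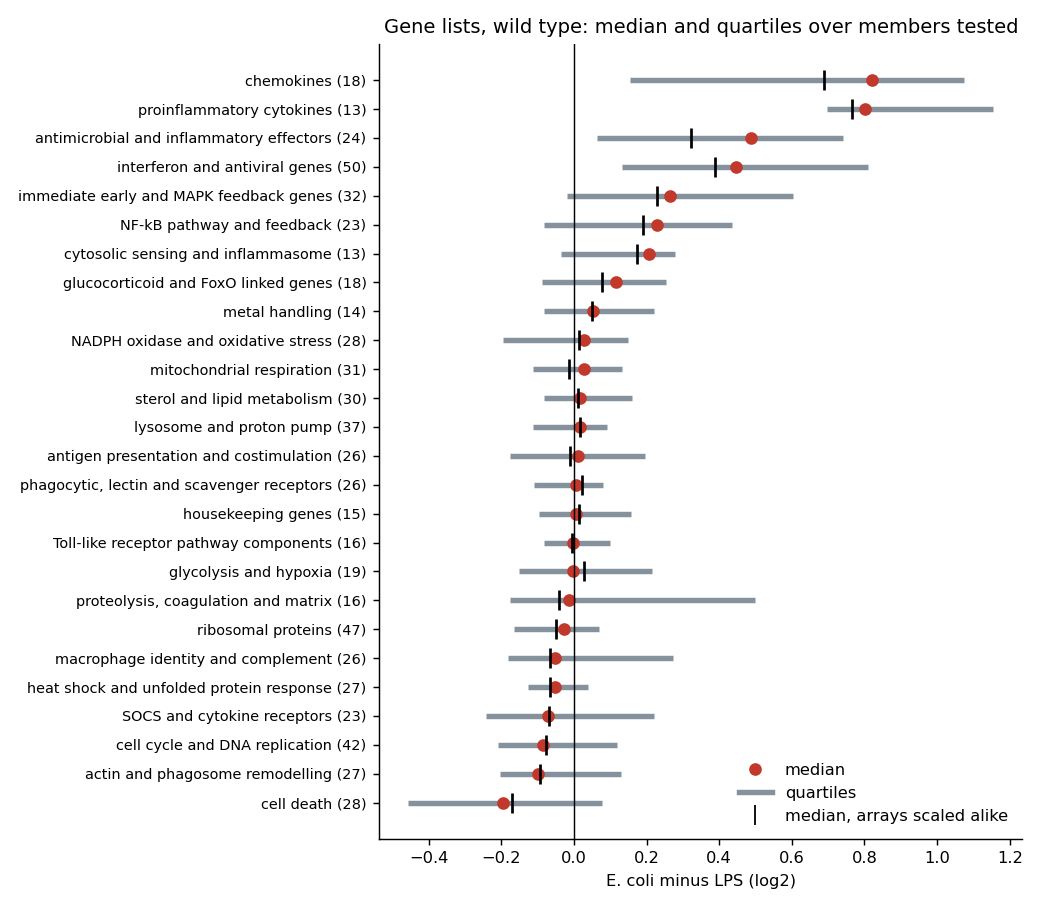
Differences between the stimuli (E. coli minus LPS, log2, horizontal axis) over the tested members of each gene list (their number in brackets): the median (red point), the quartiles (grey bar) and the median with arrays scaled alike (black tick). The chemokine and cytokine medians lie at 0.82 and 0.80, those of interferon genes and effectors at 0.45 and 0.49, and those of Toll-like receptor components, phagocytic receptors and lysosome genes near 0.

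Against 224 of all 7892 probes, 1 of the 21 probes that fell furthest was without overlap between the stimuli. It belonged to Gpr146, an orphan receptor of the macrophage list, which fell to -2.12, -0.88, -1.51 and -1.51 with E. coli, against -3.63, -2.66, -2.78 and -3.97 with LPS. Every E. coli mouse had the weaker fall, with a difference of 1.75 ± 0.41 (95% interval 0.89 to 2.62; limma adjusted p = 0.822). Txnip, the inhibitor of thioredoxin and glucose uptake, fell with both and differed by 1.07 ± 0.43 on 1 probe and 0.29 on another. Hmox1, which degrades haem, fell to means of -1.29 with E. coli and -1.32 with LPS. Tsc22d3, the glucocorticoid-induced leucine zipper, the cannabinoid receptor Cnr2, the transcription factor Lyl1 and the repressor Klf10 fell with both and differed by -0.43 ± 0.57, 0.20 ± 0.93, 0.59 ± 0.41 and -0.15 ± 0.21.

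The genes that were lower with E. coli were scattered, and their mean ratios to mock were mostly small. The 12 of smallest p without overlap had differences of -0.52 to -1.98. Of these, 4 passed the test against mock with E. coli and 3 with LPS, compared with 10 and 9 of the 12 that were higher. Over all 7892 probes, 1520 passed with E. coli and 1232 with LPS, so 4 and 3 of 12 are not below the share of all probes. Oga, the enzyme that removes O-linked N-acetylglucosamine from proteins, fell with E. coli, at -1.74, -0.54, -0.92 and -0.24, against -0.05, -0.01, 0.68 and 0.06 with LPS. Mau2, a cohesin loader, fell with E. coli and differed by -0.65 ± 0.25. The deubiquitinase Usp21, the 2-oxoglutarate dehydrogenase subunit Dlst, the mitochondrial thioredoxin reductase Txnrd2 and the ubiquitin ligase Trip12 differed by -1.66 ± 0.50, -1.13 ± 0.36, -0.66 ± 0.21 and -0.52 ± 0.19. The other members were the secreted protein Fam3b (-0.80 ± 0.27), the urea transporter Slc14a2 (-0.90 ± 0.33) and 4 RIKEN-named transcripts, of which 4930463O16Rik (-1.03 ± 0.24) and 9430069I07Rik (-1.98 ± 0.48) had an adjusted p of 0.822 from limma.

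Among receptors, Trem1, which amplifies inflammatory signals on myeloid cells, was lower with E. coli without overlap. Its ratios were -0.55, 0.67, 0.57 and 0.61 with E. coli, against 2.12, 1.39, 1.79 and 1.10 with LPS. It rose with LPS and did not pass the test with E. coli, and the difference of -1.28 ± 0.48 did not pass (limma adjusted p = 0.999). The costimulatory ligand Cd86, with values in 3 E. coli mice, differed by -1.24 ± 0.52, and the glutathione synthetase Gss, with values in 3 LPS mice, by -0.92 ± 0.31. Ppargc1a, a coactivator of mitochondrial genes, had values in 3 mice of each group, at -3.50, -0.45 and -2.34 with E. coli, against 0.71, -0.29 and 0.47 with LPS. It fell with E. coli and did not pass the test with LPS, and its difference was -2.39 ± 0.61 without overlap (limma adjusted p = 0.955). The chaperone Hspa1a rose with both stimuli and differed by -1.03 ± 0.55, and the transferrin receptor Tfrc by -1.06 ± 0.45, with overlap. Genes of cell death had a median difference of -0.20 over 28 tested, with 9 above 0, and that median was -0.03 on the unswapped arrays alone. None of the 28 was without overlap, where 1.61% of all genes were higher and 1.19% lower. Apaf1, the core of the apoptosome, and the caspase inhibitor Xiap had differences of -0.82 ± 0.31 and -1.06 ± 0.50, and the death receptor Fas, named after its values were seen as 1 of the 3 strongest rises that were not above 0, of -0.45 ± 0.65.

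**Figure D4:**
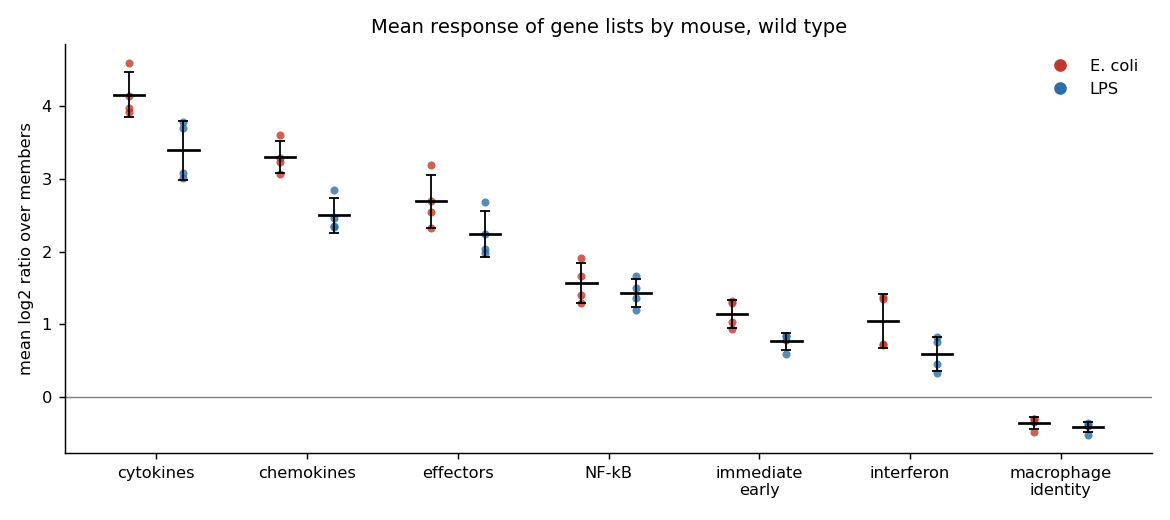
Mean log2 ratio in each wild-type mouse (points; E. coli left, LPS right) for 7 gene lists. The bar is the group mean and the whiskers are its SD (n = 4 mice each). Each mean covers only the tested members of a list that had values in every wild-type mouse. The means of cytokines, chemokines and immediate early genes do not overlap between the stimuli, and those of interferon genes, effectors and NF-kB genes do.

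Cell types other than macrophages could be checked only by whether their markers had values. Of the macrophage list, 26 of 28 genes were tested, against 2 of 13 T-cell markers, 5 of 12 B-cell markers, 4 of 12 neutrophil markers, 3 of 8 NK-cell markers and 4 of 14 stromal markers. Of the markers of mast cells and basophils 6 of 10 were tested, and of those of erythroid cells 4 of 8. None of these markers was called in the difference. Of the 4 tested dendritic-cell markers, 1 was lower with E. coli without overlap, against 1.19% of all genes. The part of other cells in the results was not tested, since ratios hold no level. Among the 59 strongest rises, 8 probes stood in 4 pairs with consecutive probe identifiers, such as Il1b with Timm13 (4.27 with E. coli and 4.10 with LPS), an inner-membrane chaperone, and Gadd45b with Pde6a (4.45 with E. coli and 2.79 with LPS), a phosphodiesterase of the retina. The largest mean response of all belonged to Rpl39l, a ribosomal protein paralogue, at 8.12 with E. coli and 6.70 with LPS. These genes were named after their values were seen, and whether their signal is their own was not tested.

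The same comparison in MyD88-/- macrophages (4 mice per stimulus, with 1 array in place of 2 for LPS mouse 4) gave smaller median differences at the strong end. Of the strongest wild-type rises, 52 probes had values in 3 or more mice of both MyD88-/- groups. Their median difference was 0.88 in wild-type cells, with 50 above 0, and 0.03 in MyD88-/- cells, with 27 above 0. Their MyD88-/- responses were still large, with medians of 2.95 to E. coli and 2.80 to LPS. With probes chosen by MyD88-/- responses instead, the 36 probes with a mean response of 3 or more in MyD88-/- cells had a median difference of 0.89 in wild-type cells, with 34 above 0, and 0.08 in MyD88-/- cells, with 21 above 0. The difference between the genotypes did not pass for any single probe (limma, 0 of 7325, with 219 at an unadjusted p under 0.05).

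**Figure D5:**
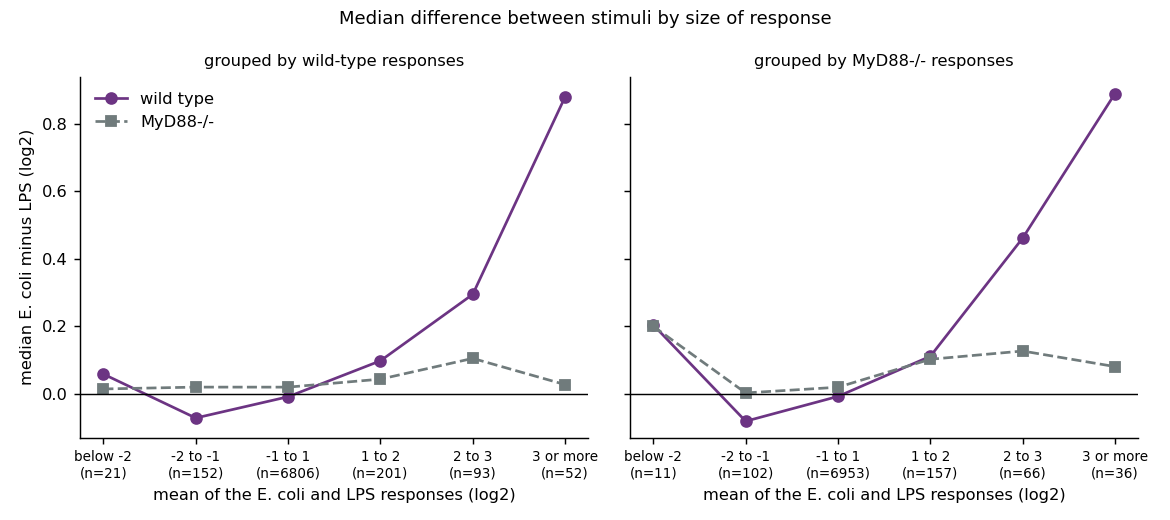
Median difference between the stimuli (E. coli minus LPS, log2, vertical axis) by range of the mean response for wild-type and MyD88-/- macrophages, with probes grouped by wild-type responses and by MyD88-/- responses. The wild-type medians climb to 0.88 and 0.89 in the highest range, and the MyD88-/- medians there are 0.03 and 0.08.

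Single genes varied in this respect. Ccl17 had mean ratios of 0.40 with E. coli and -0.10 with LPS in MyD88-/- cells. Cxcl10 was high in MyD88-/- cells, at 5.81 with E. coli and 5.35 with LPS, as was Ccl5 at 4.24 and 4.21. Il4i1 kept a wide gap, at 3.77 with E. coli and 1.86 in 3 LPS mice, and Gpr146 had the weaker fall with E. coli there too, at -1.86 against -2.82. Other genes had the reverse order in MyD88-/- cells: Il1b at 2.96 with E. coli and 3.71 with LPS, and Ccl3 at 1.03 and 1.78. The same held for Il1a (2.94 and 3.30) and Cfb (0.44, and 1.29 in 3 LPS mice). Cxcl1, Cxcl2, Ccl2, Ccl4 and Ccl7 had differences between -0.17 and -0.09. These means are given without their spread. Of the 12 non-overlapping genes of smallest p that were higher with E. coli in wild-type cells, 11 had a positive difference in MyD88-/- cells. These 11 ran from 0.015 for Plpp3 to 0.97 for Gpr146, with Lrrc28 at 0.016 and Ccl5 at 0.039, so some were close to 0. Of the 12 that were lower, 4 had a negative one. Among the 6806 probes with wild-type mean responses between -1 and 1, the MyD88-/- difference was positive for 3619. Several of the genes that were higher, such as Ccl17 and Cxcl10, lie outside that range. Among the 52 strongest wild-type rises with MyD88-/- values it was positive for 27.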

How the data were processed

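Total RNA of stimulated and mock-treated macrophages was labelled with Cy3 and Cy5 and hybridised to spotted arrays, which were scanned with a GenePix 4000B scanner and quantified with GenePix Pro 3.0 before analysis in BASE and GeneSpring, per the labels' protocols. The deposited values are log2 ratios made by the authors, 1 column per array. The normalisation and the sign convention are not given in the sources used here, and no value column was left without a sample (0). Values at the floor of log2(0.01) were set to missing, since a failed ratio and a very low one look the same there, and the 2 dye orientations of each mouse and stimulus were averaged. The wild-type arrays held 5564 to 10497 values each, the ratios of a mouse's 2 arrays correlated at 0.322 to 0.710 across probes, and the number of mice limits the precision.

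Probe names come from the platform annotation: 11480 of 13872 probes had 1 symbol, 50 several and 2342 none. Probes with values in 3 or more of the 4 mice of both wild-type groups were tested with limma 3.58.1 (R 4.3.3; lmFit and eBayes) on all 16 mouse ratios, 1 coefficient per genotype and stimulus, with Benjamini-Hochberg adjustment over all 7892 probes and a threshold of 0.05. Single genes also had an exact 2-sided permutation test over mice (scipy 1.17.1). The adjusted p of the difference was 0.822 to 0.999 for every gene named with a tested value, so it is printed for a few. Where a gene had several probes, the one measured on the most wild-type arrays stood for it.

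The genes named were drawn from the 12 probes of smallest p in each direction with values in all 8 mice and no overlap, the 3 members of smallest p in each gene list, and a fixed set of response genes, of which not all are named, together with those stated to be chosen after their values were seen. The comparison, the gene lists and that set were chosen with earlier results of these data known, so no list has a p-value of its own. The mouse numbers were not used as pairs: over all probes, deviations of same-numbered mice correlated at -0.056 to 0.041, and 1 of 8 ratios matched its own number best, which does not show that same-numbered mice shared nothing. The alternatives were array scaling, the floor, each dye orientation, minimum numbers of mice, a replicate block, other fits and leaving out each mouse. The pipeline was tested on simulated data.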

Additional observations from a re-analysis of the deposited data

Results flagged for a closer look

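In 10 of 235 checked groups of 4 mice, 1 mouse lay far from the other 3 by Dixon's test at the 95% level; chance alone marks about 5% of such groups. For the chemokines, these were Cxcl14 in LPS mouse 4 (-1.73), Cxcl2 in E. coli mouse 4 (5.91) and Ccl4 in E. coli mouse 1 (6.26), each on the side that widens the gap between the stimuli. For genes lower with E. coli, they were Oga in LPS mouse 3 (0.68), Slc14a2 in E. coli mouse 3 (-0.19) and Trem1 in E. coli mouse 1 (-0.55), also on the widening side. The remaining ones were Lrrc28, a leucine-rich repeat gene, in E. coli mouse 4 (2.32), Psmb9 in LPS mouse 3 (-0.36), Socs1 in LPS mouse 1 (2.88, which narrows the gap) and the mean of the heat shock list in LPS mouse 2 (0.064).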

How the results depend on the processing

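The count of 0 for the difference held under 30 of the 31 settings tried. The exception was a minimum of 2 mice per group, which called 1 of 9855 probes, Myo15, with 2 mice in each group (mean ratios of -3.91 with E. coli and 0.78 with LPS; difference -4.69 ± 0.35, limma adjusted p = 0.022); it was named after its values were seen. With the mouse number as a replicate block, 0 probes were called for the difference, 1250 for E. coli and 964 for LPS. The responses of 1520 probes to E. coli and 1232 to LPS became 902 and 702 on the dye-swapped arrays alone and 575 and 499 with a size of at least 1. Leaving out each mouse gave 0 to 0 for the difference, 1072 to 1587 for E. coli and 830 to 1337 for LPS. The 224 probes without overlap became 145 with all 4 mice required, 650 with 2 or more mice and 436 to 536 without a mouse, since fewer values overlap less often. The median difference of 0.85 among the strongest rises ranged from 0.66 to 0.96 without a mouse and was 0.74 without the 2 arrays with the fewest values, an alternative added after seeing the data. Of 2820 values for single genes under the alternatives, 4 changed sign: Tfrc (0.12), Cxcl1 (-0.011) and Relb (-0.21) on the dye-swapped arrays, and Egr1 (-0.050) without those 2 arrays. The cause was not tested. The list medians ranged over 0.46 to 0.88 for chemokines, 0.55 to 1.20 for cytokines, 0.32 to 0.58 for interferon genes, 0.25 to 0.63 for effectors, 0.17 to 0.39 for immediate early genes and -0.03 to 0.25 for NF-kB genes.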

Other observations

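Interferon genes showed a second pattern that is not a difference between the stimuli. Under both stimuli, mice 1 and 2 had higher ratios than mice 3 and 4 for 9 of the 48 interferon genes with values in all 8 mice (18.8%), against 154 of 5257 genes (2.93%). These included Mx2, at 4.71, 5.26, 2.73 and 2.39 with E. coli, against 3.01, 2.78, 0.56 and 0.66 with LPS, and Tgtp1, an interferon-induced GTPase, at 3.22, 3.33, 1.06 and 1.60 with E. coli, against 1.31, 1.56, 0.56 and 0.57 with LPS. The antiviral genes Ifit2, Ifit3, Rsad2 and Usp18, the signalling genes Irf7 and Stat2 and the peptide transporter Tap1 made up the other 7. The grouping of the mice was noticed in these values and has no test, and the labels do not say what the mice of one number share.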
